A study of Mus musculus with 4 samples.

Results

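ATF4 and 9 of the genes that act with it or under it in the response to amino acid shortage were followed in primary mouse hepatocytes given non-essential amino acids (NEAA) or left as control. The members were the 10 symbols Atf4, Atf5, Ddit3, Trib3, Asns, Chac1, Sesn2, Nupr1, Ddit4 and Eif4ebp1, and their rows were found by Ensembl gene identifier through GENCODE M21. Of the 10 genes, 5 had a row, Atf4, Ddit3, Trib3, Asns and Nupr1, with 1 row each, out of 37363 rows of 19284 gene identifiers in all. Atf5, Chac1, Sesn2, Ddit4 and Eif4ebp1 had no matching row and were not analysed here. The NEAA group and the control group had 2 samples each, all labelled as hepatocytes from liver. The sources used here give no strain or age, and no make-up, dose or length of the NEAA treatment. Whether the samples of a group were separate cultures is not stated, and the p-values below therefore cover the spread among these 4 samples, possibly a technical one. As RNA of whole cultures was measured, fewer cells of a type and less RNA per cell cannot be told apart.

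ATF4 is a basic leucine zipper (bZIP) transcription factor. When an amino acid runs short, uncharged tRNA activates the kinase GCN2, which phosphorylates the initiation factor eIF2. General translation then slows while translation of the Atf4 mRNA increases. The protein switches on genes for amino acid uptake, amino acid synthesis and tRNA charging, and genes that restrain or end the response. Much of this control acts on translation, so the RNA level of Atf4 is not a measure of ATF4 activity. In the liver the same pathway is known for the response to diets that lack an amino acid.

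The deposited unit is FPKM, fragments scaled to transcript length and library size. A row stands for a transcript model of a gene and is called a model here. All 5 members with a row have exactly 1 transcript of the class "retained intron" in GENCODE M21, and 0 of the 5 members without a row have any. Of 9265 protein-coding identifiers with rows, 8991 had as many rows as retained-intron transcripts. The files name no transcript, so the match is one of number only, and the values below cannot be taken as levels of the spliced mRNA. Of the protein-coding genes with a row, 151 have no such transcript. FPKM sums per library were 65718.5 and 60942.0 with NEAA, against 73600.1 and 73376.5 in control. The lincRNAs Gm26917 and Gm42418 held 49.4% and 46.1% of that sum with NEAA, against 52.9% and 50.4% in control. Of 16 hepatocyte marker genes, 5 had a row. The iron carrier Trf was the most abundant of them, at 57.1 and 55.8 FPKM with NEAA and 22.5 and 28.1 FPKM in control, summed over its models. The Trf sum was higher in both NEAA libraries. So was Tdo2, at 0.357 and 0.869 FPKM with NEAA against 0.0313 and 0.0034 in control. Cyp3a11 was also higher in both, at 0.236 and 0.238 FPKM with NEAA against 0.018 and 0.0041 in control. The groups of Ass1 and Cyp2e1 overlapped. The part of these hepatocyte markers in the results below was not tested. Rows of markers of endothelial cells (6 of 8 genes) summed to 1.56 and 1.24 FPKM with NEAA and 1.65 and 0.790 in control. Of these, Eng was lower in both NEAA libraries, at 0.103 and 0.084 FPKM against 0.328 and 0.118 in control. Lyve1 was higher in both, at 0.195 and 0.244 FPKM with NEAA against 0.103 and 0.083 in control. Stab2 was higher in both as well, at 0.280 and 0.334 FPKM with NEAA against 0.246 and 0.104 in control. The groups of Kdr and Pecam1 overlapped. Rows of markers of stellate cells and fibroblasts (6 of 9) summed to 2.11 and 1.98 FPKM with NEAA and 3.12 and 2.28 in control. Among them only Reln was lower in both NEAA libraries, at 0.377 and 0.600 FPKM against 1.71 and 1.04 in control. Des was higher in both, at 0.398 and 0.429 FPKM with NEAA against 0.248 and 0.192 in control. The groups of the other stellate cell and fibroblast markers overlapped. Sums for macrophage (1 of 8), cholangiocyte (2 of 6) and red blood cell markers (4 of 5) were below 0.05 FPKM in each library. Cftr, Clec4g, Hba-a2 and Hbb-bs were listed at 0 in all 4. The part of these markers in the results was not tested.

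What the annotated transcripts of this class cover differs between the genes. The Atf4 transcript of this class (Atf4-203, GRCm38 chromosome 15, 80255523 to 80257541, plus strand) is a single exon of 2019 bases, of which 68.6% lie in exons of the coding transcripts and 633 bases in 2 introns. That of Ddit3 (Ddit3-202, chromosome 10, 127290794 to 127294582, plus strand) has 969 exonic bases, 84.9% of them intronic to the coding transcripts. That of Trib3 (Trib3-203, chromosome 2, 152342938 to 152343970, minus strand) has 504 exonic bases, of which 80.4% are shared with coding exons and 99 are intronic. That of Asns (Asns-204, chromosome 6, 7681277 to 7682358, minus strand) has 526, of which 55.3% are shared and 235 are a whole intron. The Nupr1 transcript (Nupr1-202, chromosome 7, 126623252 to 126627010, minus strand) has 2449, of which 33.7% are shared, 289 are intronic and 1334 lie outside the coding transcripts. Reads from the shared exons cannot be assigned by sequence to the spliced or to the intron-containing RNA. Of other annotated genes, only a second entry with the symbol Ddit3 (ENSMUSG00000116429, same strand, no row) overlaps any of these 5 transcripts, by 105 exonic bases.

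**Figure D1:**
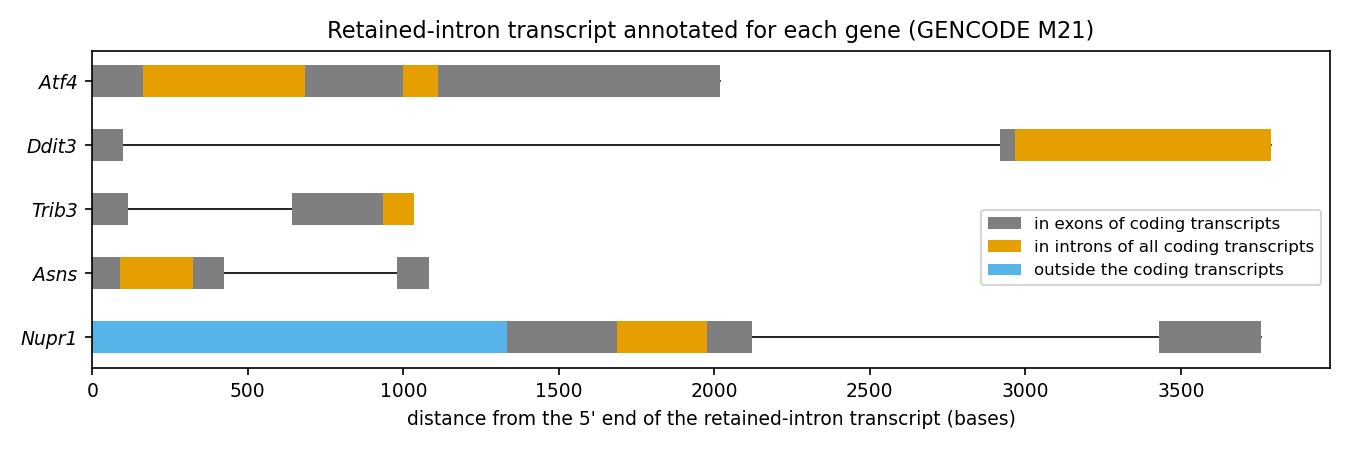
Exons of the GENCODE M21 retained-intron transcript of each of the 5 genes, placed by distance in bases from its 5′ end, with thin lines for spliced-out parts. Orange blocks lie in introns of all coding transcripts of the gene, grey blocks in their exons and the blue block of Nupr1 outside them; Ddit3 has the largest intronic share at 84.9% and Nupr1 the smallest at 11.8%.

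The intronic stretches that separate these Atf4, Asns and Trib3 transcripts from the spliced coding transcripts are shown as short examples. They are what the rows could hold beyond the mRNA, if the rows stand for these transcripts. The longer of the 2 Atf4 stretches, chr15:80255686-80256206 with 521 bases, is not printed. They were read 5′ to 3′ from the GENCODE M21 transcript sequences, and capitals mark the GT at the 5′ splice site and the AG at the 3′ splice site where the whole intron is retained. The Atf4 stretch is chr15:80256522-80256633 on the plus strand, the Asns stretch chr6:7682036-7682270 on the minus strand and the Trib3 stretch chr2:152342938-152343036 on the minus strand. The Atf4 and Asns stretches are whole introns that begin with GT and end with AG, while the transcript of Trib3 ends inside its intron.
Atf4: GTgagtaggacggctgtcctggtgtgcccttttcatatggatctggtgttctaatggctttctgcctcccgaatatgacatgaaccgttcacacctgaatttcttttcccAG
Asns: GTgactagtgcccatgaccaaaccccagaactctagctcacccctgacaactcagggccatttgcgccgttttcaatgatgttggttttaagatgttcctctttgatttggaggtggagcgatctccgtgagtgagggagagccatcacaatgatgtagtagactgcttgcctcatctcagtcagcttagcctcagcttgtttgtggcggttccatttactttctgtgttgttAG
Trib3: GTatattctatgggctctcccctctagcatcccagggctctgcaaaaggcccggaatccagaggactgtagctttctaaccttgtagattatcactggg

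Atf4, the regulator itself, was the most abundant of the 5 models. It measured 6.85 and 5.54 FPKM with NEAA, against 7.63 and 6.46 FPKM in control. The groups overlapped, and the log2 fold change of -0.16 (SE 0.17) on the log2(FPKM + 1) scale did not pass (limma adjusted p = 0.592). Its sign depended on the scaling: with each library rescaled to the mean FPKM sum it was 0.02. That rescaling moved the median log2 fold change of all tested models by 0.14, and relative to that median the Atf4 model stood at -0.07 as deposited and at -0.02 rescaled.

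Ddit3 codes for CHOP, a bZIP factor downstream of ATF4 that promotes cell death in prolonged stress. Its model measured 1.76 and 1.23 FPKM with NEAA, against 2.10 and 2.43 FPKM in control. Both NEAA libraries lay below both control libraries, by a log2 fold change of -0.39 (SE 0.16), and the difference did not pass (limma adjusted p = 0.233). In the retained-intron transcript annotated for Ddit3, 823 of 969 exonic bases are intronic, the largest share of the 5 such transcripts. Whether the row stands for that transcript is not known.

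Trib3 codes for a pseudokinase that ATF4 and CHOP induce and that feeds back on them, and which also binds the kinase AKT in insulin signalling. The Trib3 model measured 0.756 and 0.453 FPKM with NEAA, against 2.06 and 3.22 FPKM in control. The groups were far apart, with means of 0.605 ± 0.214 FPKM with NEAA and 2.64 ± 0.823 FPKM in control (SD, n = 2 each), a mean 77.1% lower with NEAA. The log2 fold change was -1.17 (SE 0.22), and 2.64% of the 6064 tested models had a more negative one. In the fit over models it did not pass (limma adjusted p = 0.0772). In the fit over values summed per gene, where the value of Trib3 is the same because it has 1 model, its limma adjusted p was 0.0430 (SE 0.21). Trib3 reached the mean of 1 FPKM needed for testing only through the control group, its NEAA mean being 0.605 FPKM, so a sum admitted this way had to differ and the call lends the values no further support. The call also rested on all 4 libraries: with any of them left out the adjusted p ran from 0.0954 to 0.145, and with no level filter it was 0.0825.

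Asns codes for asparagine synthetase, the enzyme that makes asparagine, itself a non-essential amino acid. The Asns model measured 0.329 and 0.217 FPKM with NEAA, against 1.06 and 1.16 FPKM in control. Every NEAA value lay below every control value, with means of 0.273 ± 0.0790 FPKM with NEAA and 1.11 ± 0.0716 FPKM in control (SD, n = 2 each), a mean 75.3% lower with NEAA. Its mean over the 4 libraries, 0.689 FPKM, was under the 1 FPKM needed for testing, so it has no call. Without the level filter the log2 fold change of -0.73 (SE 0.12) did not pass (limma adjusted p = 0.141).

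Nupr1, a small nuclear protein induced by many stresses, measured 0.301 and 0.268 FPKM with NEAA, against 1.14 and 0.238 FPKM in control. A single control library stood high and the other lay below both NEAA libraries. The log2 fold change of -0.34 became 0.05 without control 1. Its mean of 0.487 FPKM was also under the filter, and without the filter it did not pass (limma adjusted p = 0.615).

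**Figure D2:**
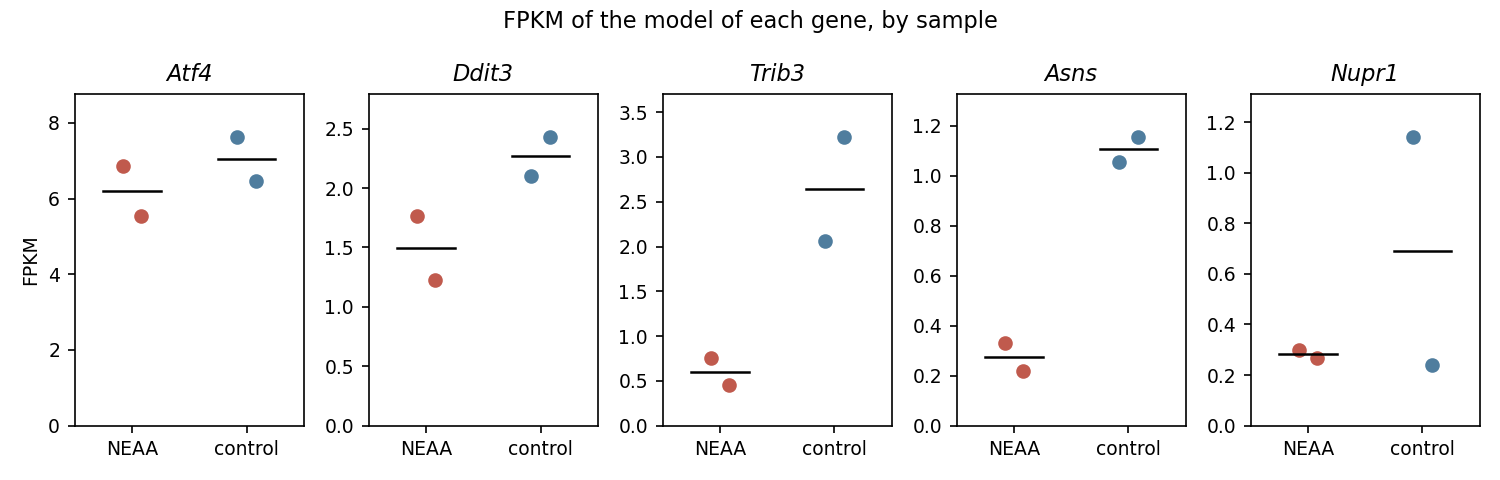
FPKM of the model of each gene in the 2 NEAA and the 2 control samples, with points for samples and a line at the group mean; each panel has its own axis from 0. NEAA and control do not overlap for Ddit3, Trib3 and Asns, and they overlap for Atf4 and Nupr1.

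Of the 3 members tested, 0 models were called by limma and 1, Trib3, had an unadjusted p under 0.05, as did 25.9% of all models. Among all 6064 tested models 176 were called, which is 2.90%, with 58 lower (0.956%) and 118 higher (1.95%) with NEAA as deposited, and 40 lower and 151 higher after rescaling to the mean sum. Of the 3 members' gene sums 1 was called, and called lower, against 10.1% of all 4700 tested sums called in either direction and 4.11% called lower. Of those sums 30.7% had an unadjusted p under 0.05, and 193 were called lower and 282 higher as deposited (96 and 419 after rescaling). With a single library left out, between 0 and 91 of the 4700 sums were called in either direction, so most single calls named here rest on all 4 libraries. The groups did not overlap, with NEAA lower, for 2 of the 3 tested models, against 36.0% of all tested models and 34.4% of all tested sums. Counting those under the filter it was 3 of 5, against 23.6% of the 25076 models above 0 in any library. Since Trib3 passed the level filter through the control group alone, these counts over the members are a description only.

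FPKM is per length, and the 5 models are ranked here by their deposited values. As the transcript behind each row is not named, the ranks describe these values only. The part of read assignment in them was not tested. With NEAA the FPKM order was Atf4, Ddit3, Trib3, then Asns and Nupr1, whose ranges of 0.217 to 0.329 and 0.268 to 0.301 FPKM overlapped. In control the order was Atf4, then Trib3 and Ddit3, whose ranges of 2.06 to 3.22 and 2.10 to 2.43 FPKM overlapped, then Asns and Nupr1, which overlapped as well. Trib3 thus lay below Ddit3 in both NEAA libraries and on both sides of it in control.

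A ratio to the Atf4 model of the same library does not depend on how libraries are scaled. The Trib3 model was at 11.03% and 8.18% of the Atf4 model with NEAA, against 27.0% and 49.9% in control. Asns was at 4.80% and 3.92% of it with NEAA, against 13.8% and 17.9% in control. Both ratios were lower in each NEAA library than in either control library, with log2 differences of -1.95 for Trib3 and -1.86 for Asns between the group means. Ddit3 was at 25.7% and 22.2% of Atf4 with NEAA and at 27.6% and 37.6% in control, again without overlap, and Nupr1 at 4.40% and 4.83% with NEAA and at 15.0% and 3.68% in control, with overlap. An exact permutation test of 2 against 2 samples (2-sided) cannot go below p = 0.333, and it gave 0.333 for Trib3, Asns and Ddit3 (0.444 adjusted over the 4 ratios) and 1.000 for Nupr1. The ratios are thus a description, and they do not show which model differed.

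**Figure D3:**
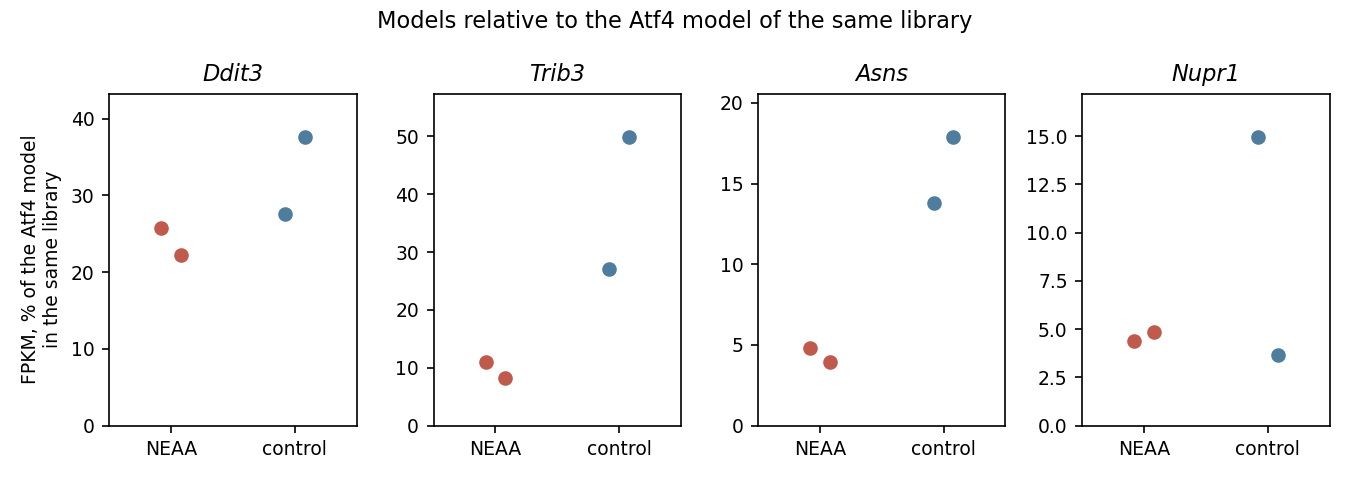
FPKM of the Ddit3, Trib3, Asns and Nupr1 models as a percentage of the Atf4 model in the same library, by sample, NEAA left of control, with axes from 0. The NEAA points lie below the control points for Ddit3, Trib3 and Asns; Trib3 is at 8.18% to 11.03% with NEAA and at 27.0% to 49.9% in control.

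The promoters of the members were searched for TGATGNAA, the core of the C/EBP-ATF response element through which ATF4 binds with a C/EBP partner, and for the variant TGACGCAA. Both strands were read, and the motifs cannot match the same 8 bases. Windows of 300 bases around annotated starts came from RefSeq (GRCm38.p6), and 9 of the 10 members had one. TGATGNAA was found for 4 of the 9, Asns, Chac1, Nupr1 and Trib3, against 4.51% of the 27025 genes with a window. TGACGCAA was found for Chac1 alone, against 0.562% of genes. The members were chosen as ATF4 and genes known to act with it or under it, so such matches could be expected in advance. These counts are therefore a description only. The matches of the members with a row are shown with 11 bases on each side, on the strand of the gene and with the match in capitals. That of Asns (chr6:7693214-7693243, minus strand) lies at -23 to -16 from the RefSeq start. That of Nupr1 (chr7:126625562-126625591, minus strand) reads on the other strand and lies at -110 to -103. That of Trib3 (chr2:152344028-152344057, minus strand) also reads on the other strand and lies at 14 to 21. These positions hold for the RefSeq starts used. By GENCODE M21 the Asns match lies within the gene, that of Nupr1 in an exon of its coding transcripts and that of Trib3 upstream of the gene.
Asns: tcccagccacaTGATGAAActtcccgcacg
Nupr1: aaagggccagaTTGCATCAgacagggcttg
Trib3: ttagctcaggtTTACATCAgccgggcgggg
These letters are a description of the sequence, and binding was not measured.

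The other known ATF4 targets gave a wider view of the same pathway. From a list of 38 further targets 33 genes had a row and 25 gene sums were tested. Of these 12 fell with NEAA and 0 rose, where fell and rose, here and below, mean called at an adjusted p under 0.05. Thus 48.0% of the tested sums of the list fell, against 4.11% of all tested sums. The median log2 fold change was -0.70 against -0.06 over all sums. A negative log2 fold change was found for 23 of the 25, against 55.1% of all sums. NEAA and control did not overlap, with NEAA lower, for 20 of the 25, against 34.4% of all sums. Phgdh is in both of these counts. It passed the level filter only through the control group, with means of 0.892 FPKM with NEAA and 1.39 FPKM in control. Both counts are therefore a description only. In the fit over models 4 of 41 fell, against 0.956% of all models, and 39 of 41 had a negative log2 fold change, against 58.9% of all models. Of the 4, both Slc7a11 models and the Slc7a1 model passed the level filter only through the control group. Their NEAA means were 0.645 and 0.706 FPKM for Slc7a11 and 0.745 FPKM for Slc7a1. Further models among the 39, for example of Yars and Eprs, passed it in the same way. The counts over models are therefore a description only. The lower direction with NEAA was known from these same samples when the list was chosen, so the counts are no independent evidence of it. Adjusted p in limma ran from 0.00831 to 0.0485 over the 12 sums that fell. The count was lower in other settings, down to 5 with libraries rescaled to the mean sum (1 sum then rose, that of Herpud1), to 9 with libraries rescaled on the sum without Gm26917 and Gm42418, and to between 0 and 1 with any library left out.

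Among its amino acid transporters 3 of 5 tested sums fell. Slc7a11, the cystine importer, measured 1.33 and 1.37 FPKM with NEAA, against 10.02 and 11.04 FPKM in control (limma log2 fold change -2.29, SE 0.13, adjusted p = 0.00831). Slc7a1, which imports cationic amino acids, measured 0.980 and 1.12 FPKM with NEAA and 4.03 and 3.30 in control, and Slc38a2, an importer of small neutral amino acids, 4.35 and 4.65 with NEAA and 8.83 and 8.89 in control. For all 3 the NEAA and control values were far apart compared with the spread within each group. Of 6 tested enzymes of amino acid and one-carbon metabolism 2 fell. Cth, which releases cysteine from cystathionine, measured 1.84 and 1.76 FPKM with NEAA, against 5.95 and 6.92 FPKM in control. Psat1, the aminotransferase of serine synthesis, measured 34.0 and 33.2 FPKM with NEAA, against 55.6 and 56.6 FPKM in control. Of 13 aminoacyl-tRNA synthetases, which load tRNAs with amino acids, 7 fell (Lars, Nars, Eprs, Sars, Aars, Rars and Yars). Lars measured 8.59 and 9.40 FPKM with NEAA, against 24.98 and 20.2 FPKM in control. Mars, for methionine, measured 22.3 and 18.5 FPKM with NEAA and 21.8 and 18.9 in control. Herpud1, of ER protein degradation, was the target with the largest positive value, at 5.27 and 2.63 FPKM with NEAA and 1.35 and 1.13 in control, without passing (limma adjusted p = 0.0841). This split of the list by role was made, and Mars and Herpud1 were chosen for naming, after their values were known.

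**Figure D4:**
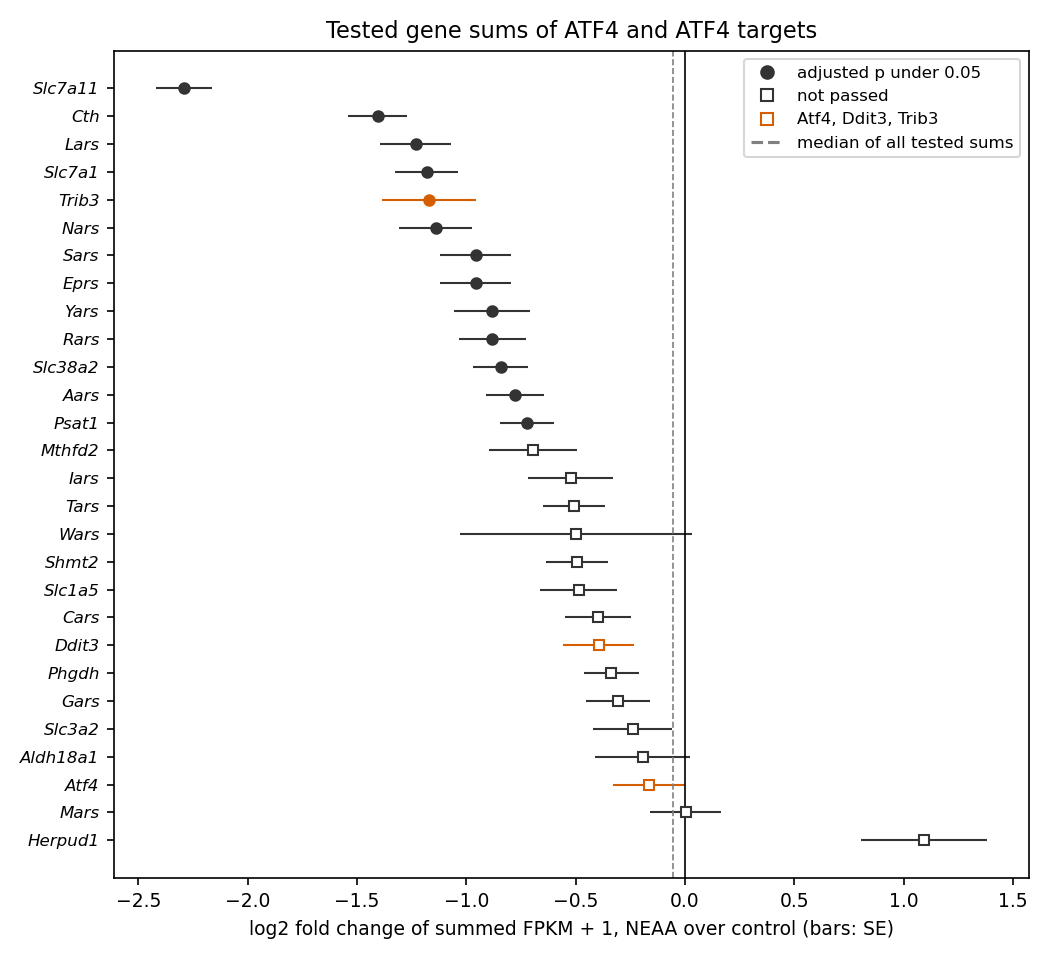
Log2 fold change of summed FPKM + 1, NEAA over control, with SE bars, for the 3 tested members (orange) and the 25 tested sums of other ATF4 targets (black); filled points passed an adjusted p of 0.05 in limma. Trib3 lies at -1.17, Ddit3 at -0.39 and Atf4 at -0.16, and the dashed line marks the median of all tested sums, -0.06.

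Upstream of ATF4, 8 gene sums of eIF2 kinases, eIF2 and eIF2B subunits and related regulators were tested. Of these limma called 0, against 10.1% of all sums. An unadjusted limma p under 0.05 was found for 3 (Eif2ak3, Eif2s2 and Impact), against 30.7% of all sums. Eif2ak3, the ER stress kinase PERK, measured 1.83 and 2.35 FPKM with NEAA, against 1.09 and 0.928 FPKM in control (adjusted p = 0.0713). Impact, which restrains GCN2, measured 2.37 and 1.93 FPKM with NEAA and 2.91 and 3.33 in control. Eif2s2 measured 2.26 and 2.11 FPKM with NEAA and 3.16 and 3.73 in control, and Eif2s1, the subunit that is phosphorylated, 1.39 and 1.89 with NEAA and 2.69 and 2.16 in control. Over the 8 sums the groups did not overlap, with NEAA lower, for 4 (against 34.4% of all sums) and, with NEAA higher, for 2 (against 26.2%). Chosen after their values were seen, Eif2ak2, the kinase PKR, measured 3.13 and 2.996 FPKM with NEAA and 2.56 and 2.14 in control, and Gcn1l1, which helps activate GCN2, 3.87 and 3.25 with NEAA and 4.18 and 4.79 in control. Of 14 bZIP partners and relatives 2 sums were tested and limma called 0 (1, Cebpg, had an unadjusted p under 0.05, as did 30.7% of all sums). Cebpg, a C/EBP partner of ATF4, measured 3.59 and 3.02 FPKM with NEAA, against 5.13 and 4.84 FPKM in control (adjusted p = 0.101). Atf7 measured 0.989 and 1.10 FPKM with NEAA and 1.24 and 0.959 in control.

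Genes of the ER stress arms that run beside ATF4, through IRE1 and ATF6, gave 10 tested sums. Of these 2 rose and 0 fell, against 6.00% of all sums that rose, 5 did not overlap with NEAA higher (26.2% of all sums), 2 did not overlap with NEAA lower (34.4% of all sums), 4 had a negative log2 fold change, and the median log2 fold change was 0.42. Xbp1, the factor spliced by IRE1, measured 15.15 and 15.17 FPKM with NEAA, against 6.36 and 6.94 FPKM in control (limma adjusted p = 0.0188). Calr, the ER chaperone calreticulin, measured 9.39 and 9.41 FPKM with NEAA, against 4.97 and 3.43 FPKM in control (limma adjusted p = 0.0431). Hsp90b1 measured 4.83 and 4.46 FPKM with NEAA and 2.66 and 2.79 in control, and Edem1 4.02 and 3.91 with NEAA and 2.63 and 1.73 in control, without passing. In the other direction, and chosen after their values were seen, Hspa5, the ER chaperone BiP, measured 21.6 and 19.6 FPKM with NEAA and 26.5 and 24.7 in control. Ern1, which codes for IRE1 itself, measured 1.03 and 1.48 FPKM with NEAA and 1.95 and 1.998 in control, also without passing. With any library left out the limma adjusted p ran from 0.0638 to 0.106 for Xbp1 and from 0.0914 to 0.136 for Calr. Whether the arms differ was not tested.

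The gene sums whose pattern over the 4 libraries was nearest to each tested member were found by Euclidean distance of log2(FPKM + 1), centred on the gene's mean, among 4700 sums. For Trib3 they were Fcf1 (distance 0.182), Zfp219 (0.201) and Caprin1 (0.227). Fcf1 measured 1.52 and 1.21 FPKM with NEAA, against 4.24 and 5.46 FPKM in control. For Ddit3 they were Ptges3 (0.046), Rpl13 (0.053) and Tmem8 (0.061), and for Atf4 Aprt (0.042), Srprb (0.046) and Csf2ra (0.055).

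**Figure D5:**
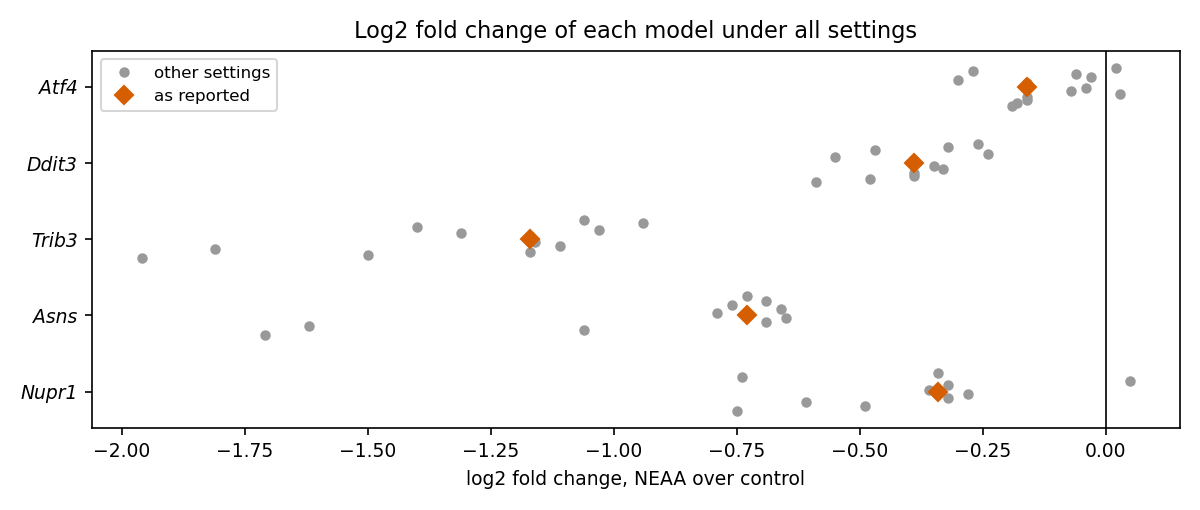
Log2 fold change, NEAA over control, of the 5 models as reported (orange diamonds) and under every other setting (grey points, one per setting). Trib3 stays between -1.96 and -0.94 and Ddit3 between -0.59 and -0.24, while Atf4 and Nupr1 have points on both sides of 0.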

How the data were processed

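RNA from 4 libraries of primary mouse hepatocytes was analysed, 2 with NEAA and 2 controls, grouped by their labels. Per the labels' protocols, Trizol was used for extraction of total RNA and a NEBNext Ultra RNA kit for the libraries. Expression was deposited by the authors as FPKM, a file per sample, with several rows for some gene identifiers. The submitters' processing notes name GRCm38 and mm10, names of the same assembly; the sources used here give no aligner, estimator, annotation release or strand setting. Rows matched by position and identifier, and symbols and coordinates came from GENCODE M21 (GRCm38). The depth is unknown, so no counting intervals are given.

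Rows with a mean of at least 1 FPKM were fitted as log2(FPKM + 1), using R 4.3.3 and its package limma 3.58.1 (lmFit and eBayes, trend on). The same fit was run on FPKM summed per gene. Tests were 2-sided, adjusted by Benjamini-Hochberg over all tested rows or sums, and called at an adjusted p under 0.05. The fit was tested on simulated data. The members, the pathway lists and the rule for the genes named were chosen with earlier results of these data known. That rule took all members, every called gene of the other lists, up to 4 tested sums of smallest p per list, and the 3 sums nearest in pattern to each tested member. Herpud1, Mars, Hspa5, Ern1, Eif2ak2 and Gcn1l1 were added after their values were seen. Alternatives were other pseudocounts, filters and scalings, no variance trend, the replicate number as a block and each sample left out.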

Additional observations from a re-analysis of the deposited data

How the results depend on the processing

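The call of the Trib3 gene sum held under 7 of 14 alternatives. The members' count of called sums was 0 without the level filter, 0 at a filter of 5 FPKM (where Trib3 is not tested), 0 with the replicate block (limma adjusted p = 0.0795) and 0 with any library left out; with 3 samples a lone library is assumed to vary like the other group. The count of member models called was 0 in every alternative. The Atf4 model and sum, at -0.16 as deposited, turned to 0.03 after rescaling to a sum of 1000000 and 0.02 after rescaling to the mean sum, which takes out the lower FPKM sums of the NEAA libraries. All other tested values of Trib3 and Ddit3 kept a negative sign in the alternatives run.

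Of all models, 176 were called as reported, 0 without the level filter, 100 at 5 FPKM, 110 after rescaling to 1000000, 0 with the replicate block, and 0 to 0 with a library left out. Of all sums, 475 were called as reported, 244 without the filter, 153 at 5 FPKM, 185 with the replicate block, and 0 to 91 with a library left out. Of the other ATF4 targets, 12 sums fell as reported, 4 without the filter, 6 of 10 tested at 5 FPKM, 5 after rescaling to 1000000 or to the mean sum, 9 after rescaling without Gm26917 and Gm42418, 3 with the replicate block, and 0 to 1 with a library left out. Their 4 called models became 0 without the filter, 2 at 5 FPKM, 2 after rescaling to 1000000, 0 with the replicate block, and 0 to 0 with a library left out. Other filters test other sets; other causes were not tested. Rescaling to the mean sum, and all alternatives for the other targets, were chosen after seeing the data. Same-numbered samples did not deviate together (r = -0.002 over 6064 models), so the numbers were not used as pairs.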

Other observations

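The nutrient kinase mTORC1, which Sesn2, Ddit4 and Eif4ebp1 would link to ATF4, was represented by 11 tested gene sums of its subunits and regulators. Of these limma called 0, against 10.1% of all sums, and 1 had an unadjusted p under 0.05, against 30.7% of all sums. The lowest p-values were those of Rheb, the GTPase that activates mTORC1, and Tsc2, which restrains Rheb. Rheb measured 4.17 and 4.07 FPKM with NEAA, against 5.34 and 5.51 FPKM in control, and Tsc2 2.78 and 3.0 FPKM with NEAA, against 3.83 and 3.85 FPKM in control. Neither gene's groups overlapped (limma adjusted p = 0.159 and 0.167). Over the 11 sums the groups did not overlap, with NEAA lower, for 3 (against 34.4% of all sums) and, with NEAA higher, for 0 (against 26.2%).

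NRF2, the factor of oxidative stress, shares the target Slc7a11 with ATF4. Of 5 other tested NRF2 target sums 1 fell, that of Abcc1, an exporter of glutathione conjugates, at 1.14 and 1.24 FPKM with NEAA against 2.53 and 2.79 FPKM in control (limma adjusted p = 0.0390). Over all 4700 tested sums 4.11% were called lower and 10.1% in either direction. The call of Abcc1 is lost with any library left out (limma adjusted p from 0.114 to 0.160) and after rescaling to the mean sum (limma adjusted p = 0.0613). Txnrd1, thioredoxin reductase, measured 7.87 and 8.91 FPKM with NEAA, against 12.0 and 10.9 FPKM in control, without passing (limma adjusted p = 0.142). Hmox1, heme oxygenase, measured 0.713 and 1.58 FPKM with NEAA, against 1.90 and 1.61 FPKM in control, without passing (limma adjusted p = 0.330). Osgin1 measured 23.4 and 44.8 FPKM with NEAA and 29.3 and 17.0 in control, with overlap.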
